A study of Mus musculus with 12 samples.

Results

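Integrins are cell-surface receptors made of an alpha and a beta subunit, and the transcripts of 10 integrin subunit genes were followed in CD4+ T cells sorted by a GFP reporter of the T-box transcription factor Eomes. The genes were Itgal, Itgb2, Itga4, Itgb1, Itgb7, Itgae, Itga1, Itga6, Itgb3 and Itga7. They were taken by symbol from a count matrix of 43626 genes, and all 10 were among the 13238 genes that passed the filter on low counts.

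The data are 12 RNA-seq libraries of splenic CD4+ T cells from 6 lymphocyte-deficient recipients (adult male Rag2-/- mice). The recipients had received CD45RBhi CD25- naive CD4+ T cells of reporter donors, and the cells were recovered 3 weeks after transfer. All donors carried 1 floxed Eomes allele and 1 GFP reporter allele (Eomes flox/GFP). Donors without Cre are called Het, and donors that also carried Lck-cre, a recombinase driven by a T cell promoter, are called KO. From each recipient a GFP-positive (GFP+) and a GFP-negative (GFP-) population was sorted, which gave 4 groups of 3 libraries, written Het GFP+, Het GFP-, KO GFP+ and KO GFP-. Replicate numbers mark the recipient within a genotype, so Het recipient 1 and KO recipient 1 are different mice. The labels do not say whether donor cells were pooled, and the host keeps its own myeloid and other nonlymphoid cells. Donor age was not given.

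Each integrin pair recognises its own ligands. LFA-1 (Itgal with Itgb2) binds ICAMs on other leukocytes and endothelium, the α4 chain (Itga4) binds VCAM-1 when paired with β1 (Itgb1) and MAdCAM-1 of gut vessels when paired with β7 (Itgb7), and αE (Itgae) with β7 binds E-cadherin on epithelium. The α1 chain (Itga1) forms a collagen receptor with β1, α6 (Itga6) and α7 (Itga7) form laminin receptors, and β3 (Itgb3) pairs with αv or αIIb to bind vitronectin, fibrinogen and related proteins. The β1 and β7 chains therefore share α4 as a partner, and β7 also serves αE.

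Promoters of the α4 chain and of its β partners are shown because the α4 and β1 transcripts moved in opposite directions in Het cells when the recipient was fitted as a block. RefSeq promoter entries (build GRCm38.p6) were found for 4 of the 10 genes: Itga1, Itga4, Itgb1 and Itgb7. The 250 bases before the start site are printed 5′ to 3′ on the gene's strand, at chr2:79255176-79255425 (plus strand) for Itga4, chr8:128685404-128685653 (plus strand) for Itgb1 and chr15:102231936-102232185 (minus strand) for Itgb7. Capitals mark GGTGTG or its reverse complement CACACC, the core of the sequence that T-box factors such as Eomes bind.
Itga4: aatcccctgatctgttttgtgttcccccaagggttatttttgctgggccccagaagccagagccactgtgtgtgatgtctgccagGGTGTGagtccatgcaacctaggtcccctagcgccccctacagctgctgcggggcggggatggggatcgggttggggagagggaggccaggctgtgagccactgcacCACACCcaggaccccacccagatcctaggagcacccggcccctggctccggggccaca
Itgb1: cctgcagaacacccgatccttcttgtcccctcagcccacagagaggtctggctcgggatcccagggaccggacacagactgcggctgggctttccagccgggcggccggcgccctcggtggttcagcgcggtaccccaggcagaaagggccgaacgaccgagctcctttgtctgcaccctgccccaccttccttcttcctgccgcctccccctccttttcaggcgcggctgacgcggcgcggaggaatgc
Itgb7: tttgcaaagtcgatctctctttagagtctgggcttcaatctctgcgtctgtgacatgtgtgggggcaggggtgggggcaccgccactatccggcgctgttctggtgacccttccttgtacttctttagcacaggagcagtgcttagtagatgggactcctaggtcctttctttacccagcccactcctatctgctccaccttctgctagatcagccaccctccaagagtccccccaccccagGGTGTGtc
The Itga4 window held 2 matches, 1 on the forward strand 165 bases and 1 on the reverse strand 58 bases before the start site. The Itgb7 window held 1 match, 8 bases before the start site, and the windows of Itgb1 and Itga1 held none. GGTGTG on either strand was present in 16.3% of all 32851 promoter windows of this length, so a match in 2 of 4 windows is a description only. The longer form GGTGTGA, which contains the core and was also searched on both strands, was present in 3.33% of all windows and in 1 of the 4, that of Itga4.

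Library totals ran from 2116894 to 18167236 counts, and GFP+ libraries came from 18000 to 117000 cells against 645000 to 2100000 for GFP- ones. Eomes, the targeted gene, stood at 89.8 to 123 CPM (counts scaled to 1e+06 per library by TMM) in Het GFP+, 31.6 to 46.7 in KO GFP+, 2.16 to 9.19 in Het GFP- and 1.95 to 4.73 in KO GFP- libraries. In the first principal component of all tested genes (41.5% of the variance), KO GFP+ replicate 1 lay at -18.1, within the range of the GFP- libraries (-69.2 to -17.6), while KO GFP+ replicates 2 and 3 lay at 95 and 29.4. KO GFP+ replicate 2 was the smallest library. Blocked calls in KO are also given without the recipients of these libraries. The summed CPM of the CD4 T marker list (10 of 10 found) was 2220 to 3670 over all libraries and was lower in the GFP+ library of 6 of 6 recipients. The myeloid list (14 of 14 found, none at 0 in a whole group) summed to 236 to 1790 CPM in Het GFP-, 561 to 4200 in Het GFP+, 96.5 to 713 in KO GFP- and 351 to 1430 in KO GFP+ libraries, and was higher in the GFP+ library of 6 of 6 recipients. The Y-linked gene Ddx3y was at 0 to 9.76 CPM in the Het and 15.2 to 67.9 CPM in the KO libraries. In Het GFP+ replicates 1, 2 and 3 the myeloid sum was 561, 2420 and 4200 CPM, and Ddx3y was at 2.67, 9.76 and 0 CPM. The Y-linked genes Eif2s3y, Kdm5d and Uty also had 0 counts in Het GFP+ replicate 3. Which cells the myeloid transcripts came from was not tested. The X-linked transcript Xist stood at 940 to 1786 CPM in Het GFP- and 1229 to 1819 CPM in Het GFP+ libraries. In KO cells Xist stood at 500 to 633 CPM in GFP- and 55.7 to 1151 CPM in GFP+ libraries. Genotype and the Ddx3y difference cannot be told apart in any comparison of Het with KO. Both transcripts also differed between the GFP- and GFP+ libraries of KO recipients 1, 2 and 3. Xist went from 575 to 968, 500 to 55.7 and 633 to 1151 CPM. Ddx3y went from 48.9 to 15.2, 67.9 to 56.4 and 42.3 to 27.8 CPM. The part of these shifts in the KO reporter contrast was not tested.

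Per kilobase of exon, 5 of the 10 subunits made up an abundant class in every group: Itgb7, Itgb2, Itgal, Itga4 and Itgb1. In Het GFP- cells the mean level ran in the order Itgb7 (343 CPM per kb), Itgb2 (223), Itgb1 (147), Itgal (138), Itga4 (76.6), Itgb3 (12.3), Itga6 (7.19), Itga1 (6.72), Itgae (1.88) and Itga7 (0.820). Neighbours from Itgb2 to Itga4, and Itga6 with Itga1, overlapped over the 3 libraries, while Itgb7 stood above Itgb2 in all of them. The order was the same in KO GFP- cells, where Itgb7 stood at 383 and Itga7 at 0.688 CPM per kb. In Het GFP+ cells Itgb2 (243) came before Itgb7 (226), Itgb1 (38.9) came below Itga4 (125) without overlap, and Itga7 (2.29) came above Itga1 (1.78) and Itgae (0.348). In KO GFP+ cells Itgb1 (154) came above Itga4 (116) with overlapping libraries, and Itga7 (0.297) was again the lowest, with libraries that overlapped those of Itgae (0.862).

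**Figure D1:**
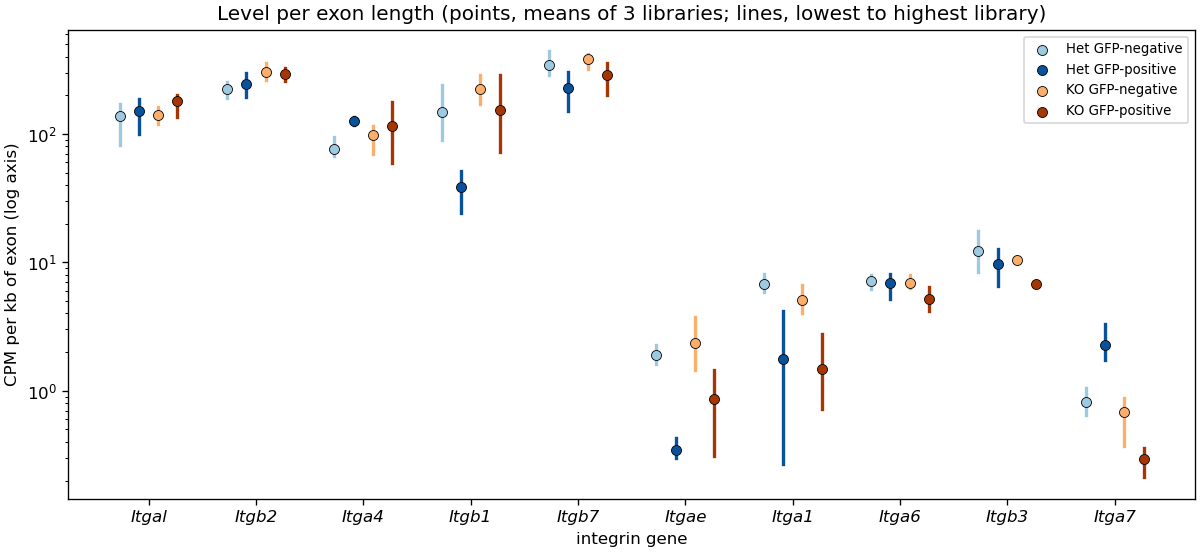
Level of each integrin gene per kilobase of exon (CPM per kb, log axis) in the 4 groups; points are means of 3 libraries and lines run from the lowest to the highest library. Itgb7, Itgb2, Itgal, Itga4 and Itgb1 lie above the other 5 genes in every group, and Itgb1 stands at 38.9 CPM per kb in Het GFP+ cells.

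The reporter contrast asks which transcripts mark Eomes-expressing CD4 T cells. In Het recipients 1 of the 10 genes passed the test over all 13238 genes (edgeR quasi-likelihood test, Benjamini-Hochberg FDR under 0.05), Itgae, which fell. The share of all tested genes called was 3.45%, with 1.82% higher and 1.63% lower, and 23.2% had an unadjusted p under 0.05. With the recipient fitted as a block, which compares the GFP+ and GFP- library of the same mouse, 6 of the 10 passed: Itga4 and Itga7 rose, and Itgae, Itga1, Itgb1 and Itgb7 fell. The same fit called 22.2% of all tested genes (12.8% higher, 9.41% lower). In KO recipients none of the 10 passed in edgeR without the block, where 0.128% of all genes were called and 4 of the 10 had an unadjusted p under 0.05 against 17.5% of all genes. Without KO GFP+ replicate 1 that edgeR fit called 12.6% of all genes and again none of the 10. With all 12 libraries DESeq2 also called none of the 10 in KO recipients, with 3.04% of all genes called. Limma-voom with sample weights called 6, in a fit that called 43.9% of all genes. With the block 4 of the 10 passed, all lower: Itga1, Itga6, Itgb1 and Itgb3, where 17.7% of all genes were called, 9.60% higher and 8.14% lower. The median log2 fold change over the 10 genes was -0.22 in Het and -0.47 in KO recipients, against -0.02 over all tested genes in both. Itga7, chosen for its genotype behaviour, is among the 6 blocked Het calls and the 4 unadjusted KO genes, so these counts are a description.

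**Figure D2:**
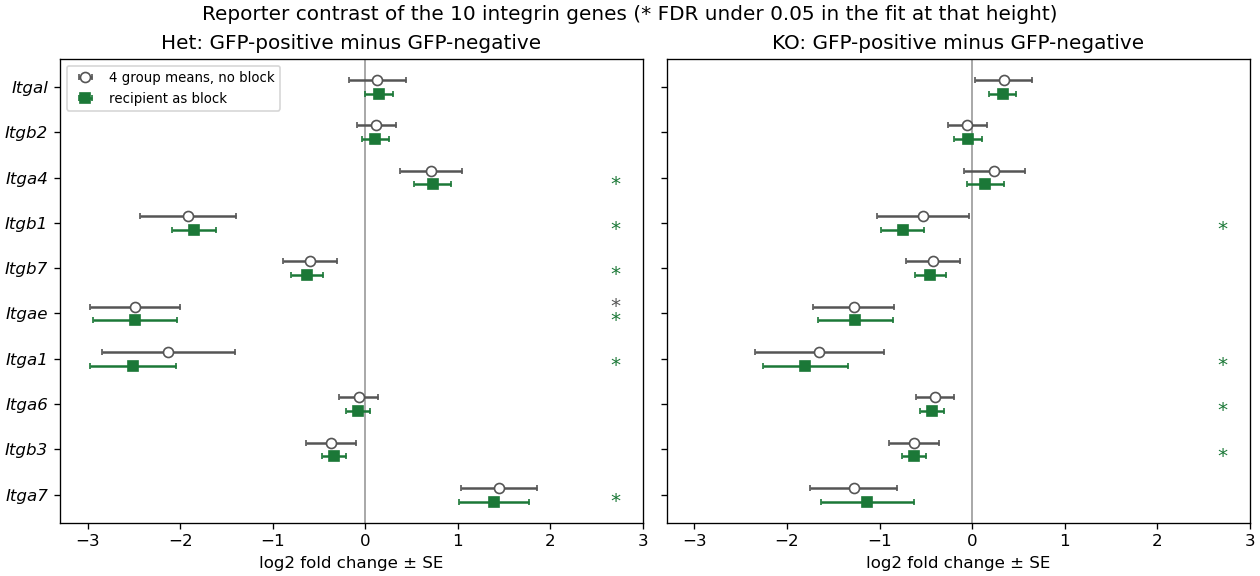
log2 fold change of GFP+ over GFP- cells for the 10 genes in Het (left) and KO (right) recipients, with its standard error, from the fit without a block (open circles) and with the recipient as a block (squares); asterisks mark an FDR under 0.05. Itgb1, Itgae and Itga1 lie furthest below 0 in Het recipients, and Itga7 lies above 0 in Het and below 0 in KO recipients.

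The chains of LFA-1 were not called by edgeR in any of the 5 tests, with or without the block. Of the other tools, limma-voom with sample weights called Itgal in KO recipients (FDR 0.0315), where it called 43.9% of all genes. Itgal (chr7:127296260-127335137, mm10) stood at 1092, 1028 and 518 CPM in Het GFP-, 1189, 1056 and 638 in Het GFP+, 756, 1036 and 913 in KO GFP- and 868, 1289 and 1268 in KO GFP+ replicates 1 to 3. The GFP+ library was the higher one in 6 of 6 recipients, by 0.04 to 0.47 on the log2 scale, while the groups overlapped in both genotypes. The log2 fold change was 0.13 ± 0.31 (SE; FDR 0.828, and 0.494 with the block) in Het and 0.34 ± 0.31 (FDR 0.545, and 0.146 with the block) in KO recipients. Itgb2 (chr10:77530252-77565708), the shared chain of the leukocyte β2 integrins, stood at 687, 774 and 579 CPM in Het GFP- and 733, 902 and 588 in Het GFP+ replicates. In KO cells Itgb2 stood at 879, 798 and 1083 CPM in GFP- and 993, 789 and 884 in GFP+ replicates. Itgb2 was thus lower in every Het GFP- than in every KO GFP- library (log2 difference of Het minus KO -0.44 ± 0.21, FDR 0.947), and its reporter contrast was 0.12 ± 0.21 (FDR 0.747) in Het and -0.05 ± 0.21 (FDR 0.916) in KO recipients.

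The α4 chain was higher in the GFP+ cells of all 3 Het recipients. Itga4 (chr2:79255426-79333123) stood at 1318, 941 and 954 CPM in Het GFP- and 1732, 1649 and 1874 CPM in Het GFP+ replicates 1 to 3, without overlap. The log2 fold change was 0.71 ± 0.33 (FDR 0.224), and 0.73 ± 0.20 with the block (FDR 0.0279). The blocked call of Itga4 was lost without Het recipient 2 (FDR 0.171) or 3 (FDR 0.122). In KO cells Itga4 stood at 1550, 967 and 1597 CPM in GFP- and 2456, 834 and 1577 CPM in GFP+ replicates, higher in 1 of 3 recipients (0.24 ± 0.33, FDR 0.696, and 0.644 with the block). Without KO GFP+ replicate 1 the Itga4 contrast in KO was -0.18 (FDR 0.707), and without replicate 2 it was 0.56 (FDR 0.536), so its direction there rested on single libraries. The difference between genotypes in this contrast was 0.47 ± 0.47 (FDR 1.0, also with the block). Exons of Itga4 overlap exons of the antisense gene Cerkl, which was at 7.14 CPM or less. The longest overlap of 1 exon with another was 905 bases.

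The β1 chain was lower in the GFP+ cells of all 3 Het recipients. Itgb1 (chr8:128685654-128733200) stood at 366, 977 and 455 CPM in Het GFP- and 98.3, 210 and 168 CPM in Het GFP+ replicates 1 to 3, so each GFP+ library lay below all GFP- ones. The log2 fold change was -1.92 ± 0.52 (FDR 0.0628), a 3.78-fold lower level, and -1.85 ± 0.24 with the block (FDR 0.00055). With the block the Itgb1 call held without each of the Het recipients in turn (FDR 0.00206 to 0.00575). In KO cells Itgb1 stood at 1175, 694 and 862 CPM in GFP- and 1168, 293 and 428 CPM in GFP+ replicates. KO recipient 1 differed by -0.01 and KO recipients 2 and 3 by -1.24 and -1.01 on the log2 scale. The KO contrast was -0.53 ± 0.50 (FDR 0.56), and -0.75 ± 0.23 with the block (FDR 0.0477). Without KO GFP+ replicate 1, the library that lay among the GFP- ones, the Itgb1 contrast in KO was -1.33 (FDR 0.0672), and -1.10 (FDR 0.00178) with the block and without that recipient. Without KO recipient 2 or 3 the blocked FDR of Itgb1 in KO was 0.25 or 0.318.

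The β7 chain was lower in GFP+ cells of 6 of 6 recipients, a direction shared by 19.9% of all tested genes. Itgb7 (chr15:102215995-102231935) stood at 827, 1205 and 791 CPM in Het GFP- and 621, 830 and 411 CPM in Het GFP+ replicates, with 1 GFP+ library inside the GFP- range. Its log2 fold change in Het was -0.60 ± 0.29 (FDR 0.232), and -0.63 ± 0.17 with the block (FDR 0.0219). That call was lost without Het recipient 2 (FDR 0.0995) or 3 (FDR 0.185). In KO cells Itgb7 stood at 1141, 882 and 1125 CPM in GFP- and 983, 548 and 814 CPM in GFP+ replicates (-0.42 ± 0.29, FDR 0.427, and 0.0806 with the block). With the block Itgb7 was called in KO without KO recipient 1 (-0.55, FDR 0.0447), and not without KO recipient 2 (-0.35, FDR 0.31). The difference between the genotypes was -0.18 ± 0.41 (FDR 1.0).

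The αE chain, which marks T cells retained in epithelium, was the one of the 10 subunits that edgeR called in Het cells without the block in the fit of all 4 groups. DESeq2, limma-voom and edgeR without the low-count filter or with only the compared groups also called Itgae there, each with 1 or 2 further subunits. Itgae (chr11:73090583-73147446) stood at 10.3, 8.10 and 7.43 CPM in Het GFP- and 1.47, 1.95 and 1.36 CPM in Het GFP+ replicates, which rest on 11, 5 and 14 counts. The 2 groups did not overlap. The log2 fold change was -2.49 ± 0.49 (FDR 0.0179), a 5.61-fold lower level, and -2.49 ± 0.45 with the block (FDR 0.00336). The call of Itgae was not made with Het GFP- replicate 2 left out (FDR 0.0664), nor with Het GFP+ replicate 1 (FDR 0.0609) or 3 (FDR 0.0625) left out, with log2 fold changes of -2.35 to -2.51 there. Limma-voom with sample weights also did not call Itgae (-2.27, FDR 0.0691). With the block it was called without each Het recipient in turn (FDR 0.0106 to 0.0282). In KO cells Itgae stood at 17.3, 8.45 and 6.65 CPM in GFP- and 3.83, 1.43 and 6.60 CPM in GFP+ replicates, where replicate 2 rests on 2 counts. KO recipients 1 and 2 differed by -2.15 and -2.49 and KO recipient 3 by -0.01 on the log2 scale. The KO contrast was -1.28 ± 0.44 (FDR 0.228, and 0.0559 with the block), and its size depended on single recipients. With the block it was -0.60 without KO recipient 1 (FDR 0.335), -1.08 without KO recipient 2 (FDR 0.166) and -2.25 without KO recipient 3 (FDR 0.0121).

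The collagen receptor chain α1 was lower in GFP+ cells of 6 of 6 recipients. Itga1 (chr13:114958079-115101964) stood at 35.1, 49.0 and 36.6 CPM in Het GFP- and 1.6, 25 and 5.35 CPM in Het GFP+ replicates. The log2 difference within Het recipients 1, 2 and 3 was -4.38, -0.97 and -2.75. The Het contrast was -2.13 ± 0.72 (FDR 0.12), and -2.51 ± 0.46 with the block (FDR 0.00338), where the call held without each Het recipient (FDR 0.000642 to 0.026). Without the block the size of the Itga1 contrast moved to -3.50 without Het GFP+ replicate 2, where it was called (FDR 0.0196), and to -1.56 without Het GFP+ replicate 1. In KO cells Itga1 stood at 40.0, 26.6 and 24.0 CPM in GFP- and 16.6, 4.28 and 5.54 CPM in GFP+ replicates, and these groups did not overlap. The KO contrast was -1.65 ± 0.70 (FDR 0.27), and -1.80 ± 0.46 with the block (FDR 0.0239), which was lost without KO recipient 2 (-1.66, FDR 0.0865) or 3 (-1.62, FDR 0.2) and kept without KO recipient 1 (-2.24, FDR 0.0131). The GFP+ groups of the 2 genotypes overlapped (Het minus KO -0.06 ± 0.74, FDR 1.0), and that difference ran from -1.45 without Het GFP+ replicate 2 to 0.78 without KO GFP+ replicate 1.

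The laminin receptor chain α6 and the β3 chain differed by less. Itga6 (chr2:71745616-71858416) stood at 56.2, 71.3 and 67.0 CPM in Het GFP- and 46.8, 73.8 and 66.2 CPM in Het GFP+ replicates, overlapping throughout (-0.07 ± 0.21, FDR 0.875). In KO cells Itga6 stood at 71.9, 57.3 and 56.5 CPM in GFP- and 57.5, 44.3 and 37.9 CPM in GFP+ replicates, lower in 3 of 3 recipients (-0.40 ± 0.21, FDR 0.322, and -0.43 ± 0.13 with the block, FDR 0.0493). Without KO recipient 1, 2 or 3 the blocked FDR of Itga6 was 0.0407, 0.134 or 0.325. Itgb3 (chr11:104608000-104670476) was lower in GFP+ cells of 6 of 6 recipients, by 0.19 to 0.71 on the log2 scale. Itgb3 stood at 64.7, 104 and 49.3 CPM in Het GFP- and 56.8, 75.3 and 38.4 CPM in Het GFP+ replicates (-0.37 ± 0.27, FDR 0.416, and 0.0767 with the block). In KO cells its libraries lay close together, at 62.9, 62.0 and 60.3 CPM in GFP- and 39.6, 37.8 and 41.5 CPM in GFP+ replicates. That difference was -0.63 ± 0.27 (FDR 0.272), and -0.63 ± 0.13 with the block (FDR 0.0116), and with the block it was called without KO recipient 1 (-0.59, FDR 0.0155) and not without KO recipient 2 (FDR 0.059) or 3 (FDR 0.0713).

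**Figure D3:**
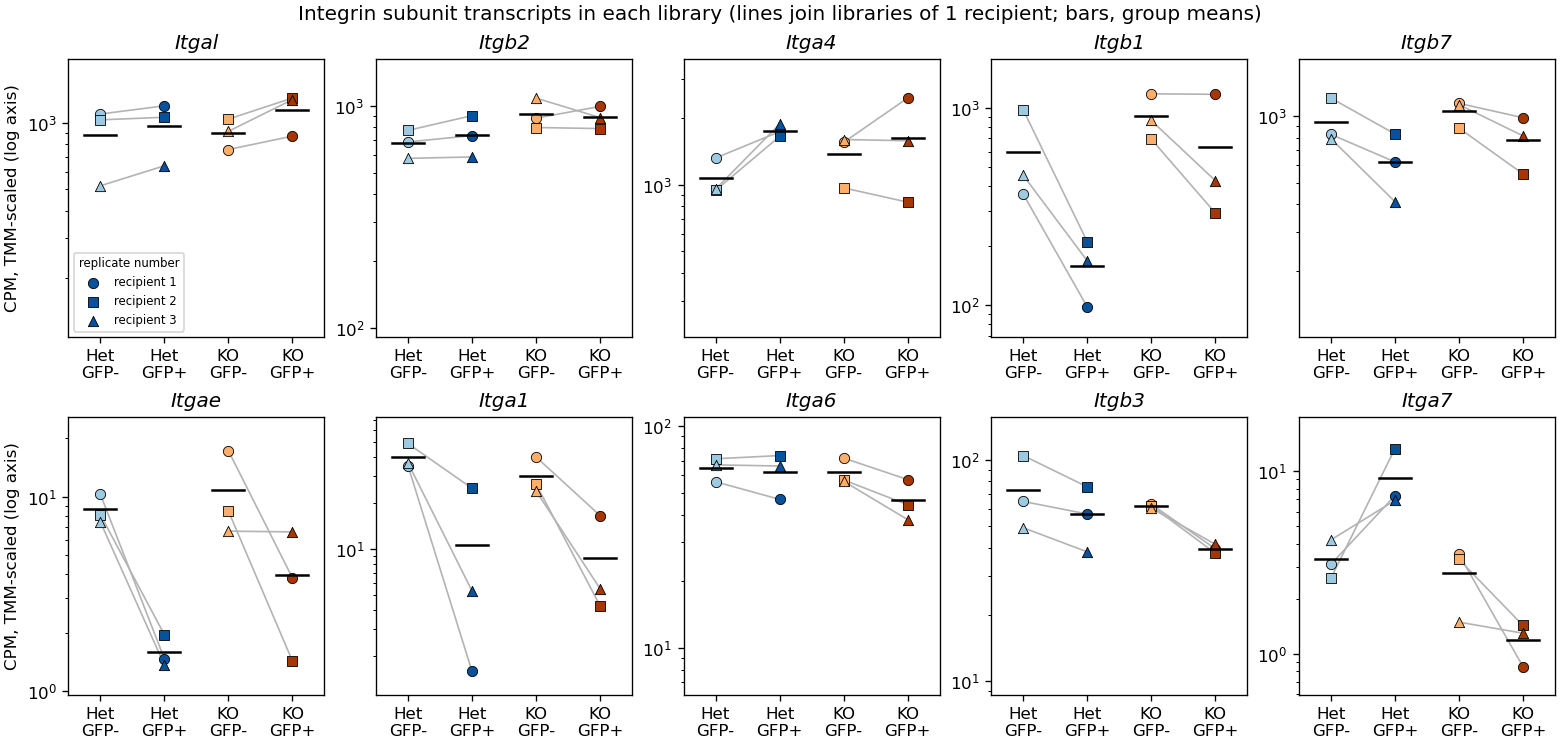
Level of each integrin gene in all 12 libraries (CPM on a log axis, TMM-scaled); marker shapes give the replicate number, lines join the 2 libraries of 1 recipient and bars are group means. Each Het GFP+ library lies below the Het GFP- ones for Itgb1, Itgae and Itga1 and above them for Itga4 and Itga7.

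The α7 chain, a laminin receptor chain best known from muscle, was higher in the GFP+ cells of 3 of 3 Het and lower in those of 3 of 3 KO recipients. Itga7 (chr10:128933813-128958277) stood at 3.09, 2.59 and 4.20 CPM in Het GFP- and 7.33, 13.3 and 6.91 CPM in Het GFP+ replicates, without overlap. In KO cells Itga7 stood at 3.5, 3.28 and 1.49 CPM in GFP- and 0.850, 1.43 and 1.30 CPM in GFP+ replicates, again without overlap, and the GFP+ values rest on 8, 2 and 11 counts. Within Het recipients 1, 2 and 3 the log2 difference was 1.22, 2.32 and 0.71, and within KO recipients it was -1.94, -1.15 and -0.19. The Het contrast was 1.44 ± 0.41 (FDR 0.075), a 2.71-fold higher level, and 1.39 ± 0.38 with the block (FDR 0.0239). That blocked call was lost without Het recipient 1 (FDR 0.0815) or 2 (FDR 0.182). The KO contrast was -1.28 ± 0.47 (FDR 0.244), and -1.13 ± 0.50 with the block (FDR 0.132), and -0.49 with the block and without KO recipient 1 (FDR 0.573).

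The genotype contrast of Itga7 is a description, since the gene was chosen for it. Itga7 was 7.93-fold higher in Het than in KO GFP+ cells (log2 difference 2.99 ± 0.48), while the GFP- groups overlapped (0.27 ± 0.40). Leaving out any 1 of the 6 GFP+ libraries kept the difference between 2.63 and 3.16. The reporter contrast of Itga7 differed between genotypes by 2.72 ± 0.62 on the log2 scale in edgeR (FDR 1.0). With the block the difference was 2.52 ± 0.62 (FDR 0.309). Neither passed, and both are descriptions, since Itga7 was chosen for this difference.

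**Figure D4:**
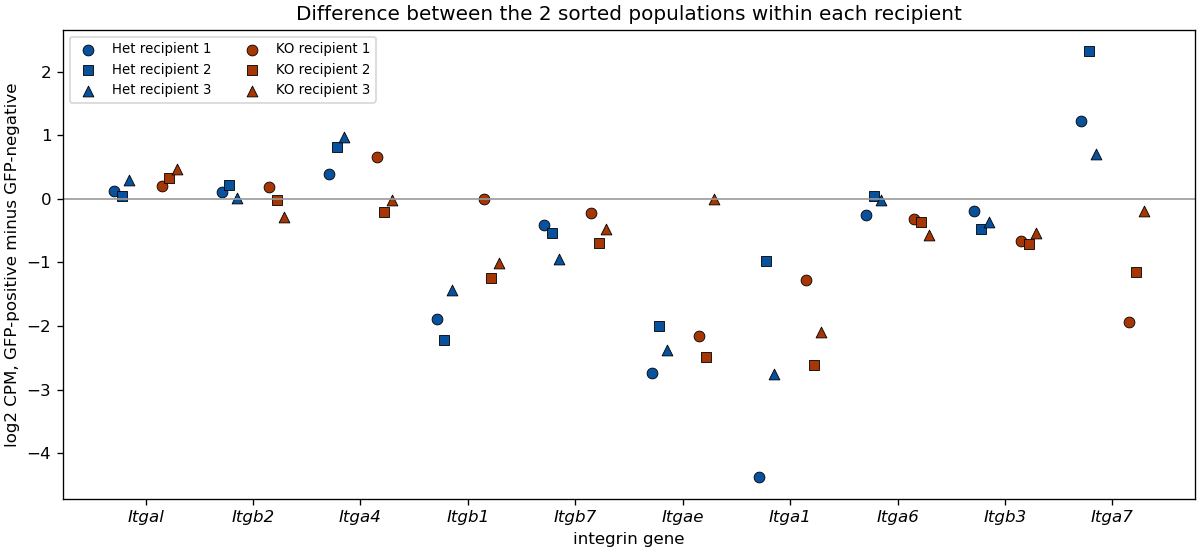
Difference between the GFP+ and the GFP- library of each recipient on the log2 CPM scale (prior count 1), for the 10 genes; blue points are Het and brown points KO recipients. Itga7 lies above 0 in the 3 Het and below 0 in the 3 KO recipients, and Itgb1, Itgae, Itga1, Itgb3 and Itgb7 lie below 0 in all 6.

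Over the 6 recipients, 5 of the 10 genes were lower in the GFP+ library every time (Itga1, Itgae, Itgb1, Itgb3 and Itgb7), and 1 was higher every time (Itgal). Of all tested genes, 37.6% had 1 direction in 6 of 6, 19.9% lower and 17.7% higher. Groups did not overlap for 5 of the 10 genes in the Het contrast, against 27.3% of all genes, and for 4 of the 10 in the KO contrast, against 20.3%. Itga7, which was chosen for its opposite behaviour in the genotypes, is in both counts, so they are a description. Beside these contrasts, the myeloid and erythroid marker sums were higher in the GFP+ library of the same 6 recipients, and their part in the results was not tested. Fewer integrin-expressing cells and less transcript per cell cannot be told apart in these bulk libraries.

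Between the genotypes, the GFP+ comparison sets Het beside KO cells, and dependence on Eomes cannot be told apart from the Ddx3y difference given above. Eomes itself was 2.66-fold higher in Het GFP+ cells (log2 difference 1.41 ± 0.43, FDR 0.42), without overlap. Of the 10 genes, 1 was called, Itga7, which was chosen for its genotype behaviour, so its call is a description and not a test. The same fit called 0.106% of all genes, 0.0529% higher and 0.0529% lower. The Itga7 call (FDR 0.0466) was lost with any 1 of the 6 GFP+ libraries left out (FDR 0.0682 to 0.219). Groups did not overlap for 2 of the 10, Itgb1 and again the chosen Itga7, against 7.48% of all genes. Itgb1 was 3.99-fold lower in Het than in KO GFP+ cells (log2 difference -2.0 ± 0.52, FDR 0.294), and without KO GFP+ replicate 1 the difference was -1.23 (FDR 0.589). DESeq2 and the fit without a filter on low counts called Itgb1 here. Itgae was 2.88-fold lower in Het GFP+ cells with overlapping groups (-1.53 ± 0.50, FDR 0.526). The other 7 genes differed by 0.50 or less on the log2 scale (FDR 0.854 to 1.0). In GFP- cells edgeR called 0 of the 10 genes and 0.00% of all genes, none of the 10 had an unadjusted p under 0.05, and every other tool and setting run also called 0 of the 10. Groups did not overlap there for 1 of the 10, Itgb2, against 11.3% of all genes. The test of a genotype difference in the reporter contrast called 0 of the 10 with edgeR, and 0.00755% of all genes. At an unadjusted p under 0.05 in edgeR stood 1 of the 10, the chosen Itga7, against 1.99% of all genes. DESeq2 also called 0. With the block edgeR also called 0 of the 10, and 0.0755% of all genes (0.0453% higher and 0.0302% lower). At an unadjusted p under 0.05 in that fit stood 2 of the 10, against 4.77% of all genes. These were the chosen Itga7, and Itgb1 (-1.10 ± 0.33, FDR 0.493).

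The authors' deposited tables list genes under an adjusted p of 0.05 in their own fits. For Het GFP+ against GFP- cells the authors' deposited table lists 1406 genes. Among them are Itgae (log2 fold change -2.16), Itgb1 (-1.7), Itga7 (1.23) and Itga4 (0.68). For KO cells the authors' deposited table lists 388 genes, among them Itgb3 (-0.61) and Itga1 (-1.26). These tables rest on the same counts as the fits above. For the GFP+ cells of the 2 genotypes the authors' deposited table holds Itga7 at -1.81 and Itgb1 at 1.36. Its sign is KO minus Het, since 0 of its 77 genes have the sign of Het minus KO in the counts.

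Among the 10 genes, the patterns over the 12 libraries were most alike for Itgb1 and Itgb7 (Pearson r 0.81 of log2 CPM) and for Itgae and Itgb7 (0.77), as a description of libraries that share recipients and sorts. Itga1 was most like Itgae (0.76), Itga6 most like Itga1 (0.69) and Itgal most like Itgb2 (0.44). For Itga7 no other of the 10 genes came above 0.49 (Itga6). Over 9820 tested genes averaging 5 CPM or more, those most like Itga7 were Slamf6 (0.91), a receptor of lymphocytes, Socs3 (0.91), an inhibitor of cytokine signalling, and Gpr155 (0.90). Slamf6 stood at 75.4 to 96.1 CPM in Het GFP-, 115 to 140 in Het GFP+, 64.7 to 91.7 in KO GFP- and 59.0 to 87.1 in KO GFP+ libraries. Socs3 stood at 37.1 to 53.4, 63.2 to 97.1, 24.9 to 40.3 and 14.8 to 25.6 CPM in the same order, highest in Het GFP+ cells without overlap. These genes were picked for their likeness, so their order carries no test.

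Of 17 other integrin genes, 13 were tested. In Het cells 2 were called: Itga2, the collagen-binding α2 chain, fell and Itgb8, a partner of αv, rose. That fit called 3.45% of all tested genes. Itga2 stood at 55.8, 62.4 and 44.5 CPM in Het GFP- and 24.5, 19.9 and 10.3 CPM in Het GFP+ replicates (log2 fold change -1.59 ± 0.32, FDR 0.0208). In KO cells it stood at 46.1, 49.4 and 42.6 against 27.6, 11.4 and 23.2 CPM (-1.07 ± 0.31, FDR 0.198, and 0.0145 with the block). Itgb8 was low, at 0.477 to 0.980 CPM in Het GFP- and 3.12 to 6.71 CPM in Het GFP+ libraries (2.56 ± 0.63, FDR 0.0453). With the block 6 of the 13 rose and 2 fell in Het recipients, where 22.2% of all genes were called (12.8% higher, 9.41% lower). In KO recipients 4 of the 13 rose and 1 fell, where 17.7% of all genes were called (9.60% higher, 8.14% lower). The genes that rose in both genotypes with the block were Itga5, the fibronectin receptor chain, and Itga2b, Itgam and Itgb2l. Itgam is also on the myeloid list and Itga2b on the platelet list. Itgam stood at 10.3 to 42.3 CPM in Het GFP- and 40.8 to 151 CPM in Het GFP+ libraries (2.12 ± 0.19 with the block, FDR 0.000108). Itga5 stood at 0.527 to 2.78 and 3.33 to 11.1 CPM in the same groups (2.53 ± 0.36 with the block, FDR 0.00097). The platelet list summed to 1.47 to 14.1 CPM over all libraries and was higher in the GFP+ library of 6 of 6 recipients, with Gp6 and Treml1 among the genes at 0 in all KO GFP+ libraries. Without Itga2b, the other 8 platelet markers summed to 0.213 to 6.42 CPM over all libraries and were higher in the GFP+ library of 4 of 6 recipients. Without Itgam, the other 13 myeloid markers were higher in the GFP+ library of 6 of 6 recipients. The part of either cell type in these values was not tested.

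Of 39 genes that activate integrins or link them to the cytoskeleton, 35 were tested, and the median log2 fold change was -0.01 in Het and -0.11 in KO recipients. Cd81, a tetraspanin that associates with integrins, was called in Het cells and rose from 5.28, 2.59 and 6.24 CPM to 8.13, 16.8 and 34.0 CPM (2.07 ± 0.46, FDR 0.0326). It was the only 1 of the 35 called there, against 3.45% of all genes. With the block Cd81, Parvb, Pxn and Dock8 rose and Rap1a, Rasgrp1, Skap1 and Cd47 fell in Het recipients. That is 4 of the 35 higher and 4 lower, against 12.8% and 9.41% of all genes. Pxn encodes the focal adhesion adaptor paxillin (0.94 ± 0.18 with the block, FDR 0.00485), Rap1a (-0.58 ± 0.17, FDR 0.033) a small GTPase that activates integrins, Rasgrp1 (-0.61 ± 0.15, FDR 0.0138) an exchange factor for Ras, and Skap1 (-0.49 ± 0.14, FDR 0.0273) an adaptor of T cell receptor signalling to LFA-1. Rasgrp2, the exchange factor for Rap1, was not called in Het recipients (0.30 ± 0.15 with the block, FDR 0.169). In KO recipients Cd81, Parvb and Pxn rose and Rap1b and Rassf5 fell with the block. That is 3 of the 35 higher and 2 lower, against 9.60% and 8.14% of all genes. The other tested genes of the list, among them talin (Tln1) and the kindlin of blood cells (Fermt3), were not called in either genotype.

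Of 20 integrin ligand genes, 11 were tested and none was called by edgeR without the block, with 4 in Het and 3 in KO recipients at an unadjusted p under 0.05, against 23.2% and 17.5% of all genes. With the block Fn1, Thbs1, Col1a1 and Tgfb1 rose in both genotypes, and Lamc1 fell in Het recipients. The blocked fit called 22.2% of all genes in Het recipients (12.8% higher, 9.41% lower). In KO recipients it called 17.7% of all genes (9.60% higher, 8.14% lower). Fn1, which encodes fibronectin, stood at 4.77 to 16.6 CPM in Het GFP- and 42.9 to 138 CPM in Het GFP+ libraries (2.88 ± 0.41 with the block, FDR 0.000892). In KO cells Fn1 stood at 0.894 to 14.2 against 21.5 to 66.4 CPM (3.18 ± 0.44 with the block, FDR 0.00179). The myeloid marker sum was higher in the same 6 GFP+ libraries, and its part in these values was not tested. Tgfb1, whose latent product is a ligand of αv integrins, stood at 38.5 to 76.4 CPM in Het GFP- and 65.4 to 90.4 CPM in Het GFP+ libraries (0.55 ± 0.18 with the block, FDR 0.0463).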

How the data were processed

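The libraries were made from total RNA (TRI reagent) after ribosomal RNA depletion with a stranded kit (TruSeq Stranded Total RNA Gold), per the labels' protocols. The authors deposited whole-number counts per gene, not normalized, and per the submitters' processing notes used bcl2fastq 1.8.4, TopHat2 2.0.13, featureCounts 1.5.0-p1, DESeq2 1.6.1 and mm10. The strand setting of the counting is not given in the sources used here, so reads of a gene and its antisense partner may not be separated. The authors also deposited DESeq2 tables, per the file headers, with the mean normalized count (a signal over libraries), the log2 fold change and its error, a test statistic (a score) and p-values for genes under an adjusted p of 0.05. These were used for description.

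Counts of all 12 libraries were scaled by TMM and tested in R 4.3.3 by the quasi-likelihood test of edgeR 4.0.16 after filterByExpr (minimum count 10, minimum total 15), with 1 mean per group and Benjamini-Hochberg adjustment over 13238 genes (two-sided, FDR 0.05). Standard errors of log2 fold changes were derived from the F statistic. The exact permutation test of 3 against 3 libraries cannot go below 0.1. Same-numbered libraries of a genotype come from 1 recipient, per the design text, and their deviations from the group means correlated at 0.226 to 0.595 in the 6 recipients. The recipient was therefore also fitted as a block, with blocked values printed where they bear on a call. Reads without molecular identifiers are not independent molecules.

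The 10 genes, the lists and the naming rule were chosen with earlier results of these data known. The rule names the 10 genes, Eomes, called genes of the lists, and the 3 genes most like Itga7. The fit of the Het reporter contrast, with and without the block, was also run on simulated data, and no result above rests on that run. The other comparisons were not simulated. Alternatives were other scaling, filters and tools (DESeq2 1.42.0, limma 3.58.1), GC and length offsets, the compared groups only, and leaving out each library. Fits with the block and each recipient left out were added after seeing the data.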

Additional observations from a re-analysis of the deposited data

Results flagged for a closer look

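Itga7, the laminin receptor chain, is listed because the GFP-positive library was higher in all 3 Het and lower in all 3 KO recipients. The difference between the 2 reporter contrasts was 2.72 ± 0.62 on the log2 scale (Het minus KO, n = 3 recipients each), with an FDR of 1.0 in edgeR over all genes and 0.309 with the recipient as a block. The direction of the difference was the same in 26 of 26 alternative settings (1.89 to 3.19), and none called it. These settings reuse the same libraries, and Itga7 was chosen for this behaviour, so the count is a description. The KO GFP-positive values of Itga7 rest on 8, 2 and 11 counts. Within KO recipients 1, 2 and 3 the log2 difference was -1.94, -1.15 and -0.19, so it was small in KO recipient 3.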

How the results depend on the processing

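In the Het reporter contrast 1 of the 10 genes was called (3.45% of all genes). The number, with the share of all genes called by the same fit, was 6 with the replicate block (22.2%), 7 with the block and a GC and length offset (22.3%), 3 without the low-count filter (3.79%), 3 with DESeq2 (9.03%), 2 with limma-voom (4.22%), 3 with limma-voom and sample weights (16.5%), and 2 with only the compared groups (3.44%). It was 0 to 2 when 1 library was left out (0.662% to 2.72%), and 3 to 5 with the block and 1 Het recipient left out (7.88% to 13.6%). In the KO contrast 0 were called (0.128%), against 4 with the replicate block (17.7%), 4 with the block and offset (18.1%), 6 with limma-voom and sample weights (43.9%), and 0 to 5 with the block and 1 KO recipient left out (2.35% to 29.0%). Without the block, none of the 10 was called there when 1 library was left out (0.0358% to 12.6%). The highest share was that without KO GFP-positive replicate 1. For GFP-positive cells of the genotypes 1 was called (0.106%), against 2 without the filter (0.304%), 2 with DESeq2 (0.703%), 0 with limma-voom (0.0755%), 0 with only the compared groups (0.0165%) and 0 when any 1 of the 6 libraries was left out (0.0215% to 0.0505%). The GFP-negative and interaction comparisons called 0 in every setting. Itga7 between GFP-positive cells had an FDR of 0.0466, and 0.0682 to 0.219 with 1 library left out. Itga7 was chosen for its genotype behaviour, so these values, and its part in the Het counts above, are a description. No called value reversed. Of the results compared with their main value, 52 passed the threshold newly and 12 lost their call. Another 895 were classed as the same and 29 as moved. The lowest counts limit Itgae and Itga7, with 2 counts each in KO GFP-positive replicate 2. The causes of these changes were not tested.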
